A study of Mus musculus with 8 samples.

Results

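Rab GTPases are small proteins that cycle between a GTP-bound form on membranes and a GDP-bound form in the cytosol, and each marks a particular step of membrane traffic. In their active form they recruit effectors that bud, move, tether and fuse vesicles. Exchange factors switch them on, GTPase-activating proteins switch them off, and prenylation at the C-terminus anchors them to membranes. In myeloid cells they are known for phagosome maturation, receptor recycling and the release of granules. The members described here were all genes with a single platform symbol made of Rab, a number and at most a letter and a further digit, so that interacting proteins were left out. They comprised 59 genes with 132 probe sets, of 18193 named genes on an array of 45101 probe sets. Where a gene had several probe sets, the brightest on average over the 8 arrays stood for it.

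The arrays came from spleen cells of 4 mice with an acute myeloid leukaemia (AML) caused by the fusion gene MLL-AF10, which joins part of a histone methyltransferase to AF10. Per the labels, c-kit+ bone marrow stem and progenitor cells, immortalised by retroviral transduction, had been transplanted into sub-lethally irradiated syngeneic recipients labelled CD57BL/6. Spleen cells of each mouse were sorted on surface c-kit (CD117) into a high fraction, CD117pos, and a fraction with little or none, CD117neg, so that both groups carried the fusion and 4 arrays stood in each. Mice are called _948, _951, _952 and _953 after the ends of their array titles. The labels do not state age, sex, the promoter driving the fusion or whether the leukaemias arose from separate transductions, and a sub-lethally irradiated host keeps blood cells of its own. The comparison asks how transcripts differ between the c-kit-high and c-kit-negative cells of a leukaemia. Values are intensities on a linear scale. Differences are CD117pos minus CD117neg of log2(intensity + 16), which understates changes of dim genes, given ± SE and tested with limma with the mouse as a block. Adjusted p-values cover all 18193 genes by the Benjamini-Hochberg method, and a gene was called below 0.05.

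Kit, the sorted receptor, rose from 28.6 ± 9.73 (SD, n = 4) to 751 ± 127 and so matched the labels. The summed intensity of 10 mature monocyte and macrophage markers lay between 21940 and 29460 on the CD117neg arrays and between 1081 and 5180 on the CD117pos arrays, with 8 of 10 lower and 0 higher. For 10 late neutrophil markers the sums were 69150 to 77870 and 14570 to 34240, with 9 lower and 0 higher. For 7 primary granule markers of promyelocytes they were 16740 to 22980 and 35780 to 38220, with 5 higher and 1 lower. Of the NK cell markers, all 5 were under 50 on every array, as were the T-cell genes Cd3d, Cd3e, Cd3g and Cd4, the B-cell genes Cd79a, Ms4a1, Pax5 and Ebf1, and the platelet genes Pf4 and Ppbp. Of mast cell and basophil markers 1 of 9 was higher (Mcpt8, 72.2 to 278) and 1 lower (Hdc, 3420 to 1476). Cpa3, Fcer1a and Tpsb2 were under 50 throughout. Among the other lists, 2 of 9 platelet (Vwf and Itgb3), 1 of 6 B-cell (Cd22) and 1 of 6 dendritic cell markers (Itgax) were lower. Called markers numbered 0 of 6 erythroid, 0 of 6 T-cell, 0 of 5 NK-cell and 0 of 6 stromal and endothelial. Cd22 fell from 326 to 17.2 and Itgax from 605 to 43.8. Summed B-cell markers were 465 to 723 in CD117neg and 140 to 290 in CD117pos cells. Summed dendritic cell markers were 559 to 827 and 112 to 182. The CD117pos array of mouse _951 stood apart, with a mean correlation to the other CD117pos arrays of 0.929, against 0.966 to 0.967 for the others. In bulk samples, fewer cells of a type and less RNA per cell cannot be told apart. The Rab results stood beside this loss of mature myeloid markers, whose part in them was not tested.

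Of the 59 Rab genes, 22 were lower in CD117pos cells and 0 were higher, while 37 were not called. That is 37.3% of the members lower, where the background was 13.8% lower and 8.27% higher among all genes tested. At an unadjusted limma p under 0.05, 27 members were lower and 2 were higher, Rab34 and Rab27b. The median log2 difference of the 59 members was -0.27, beside -0.01 for all genes, and 8 members were called at least 2-fold lower (background 7.37%), while 0 were called at least 2-fold higher (background 2.21%). Among members with a mean intensity of at least 50, 21 of 43 were lower. Of all genes with that mean, 22.5% were lower and 13.9% higher. Intensities of the 2 fractions did not overlap for 30 members (background 27.7%), of which 21 were called. After quantile normalisation 10 members were lower and 2 higher, and after centring 16 and 2, the 2 being Rab34 and Rab27b in both. All genes then numbered 1949 lower and 2420 higher after quantile normalisation and 2086 and 1940 after centring, against 2511 and 1504 as deposited, so the excess of lower calls among all genes turned or nearly vanished with scaling. The median stayed below that of all genes under both scalings, at -0.15 against 0.07 and -0.18 against 0.08. Counts depended on which mouse was left out. Without mouse _948, _951, _952 or _953 in turn, 4, 19, 8 and 5 members were lower, and all genes called lower numbered 1207, 2983, 1382 and 1181. The share of members that was lower was thus close to that of all genes without _948 or _953. It stayed above that share without _951 or _952. With a pseudocount of 1, 10 members were lower. The calls of Rab6a, Rab11a, Rab19 and Rab33b were kept under all 14 alternative settings.

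**Figure D1:**
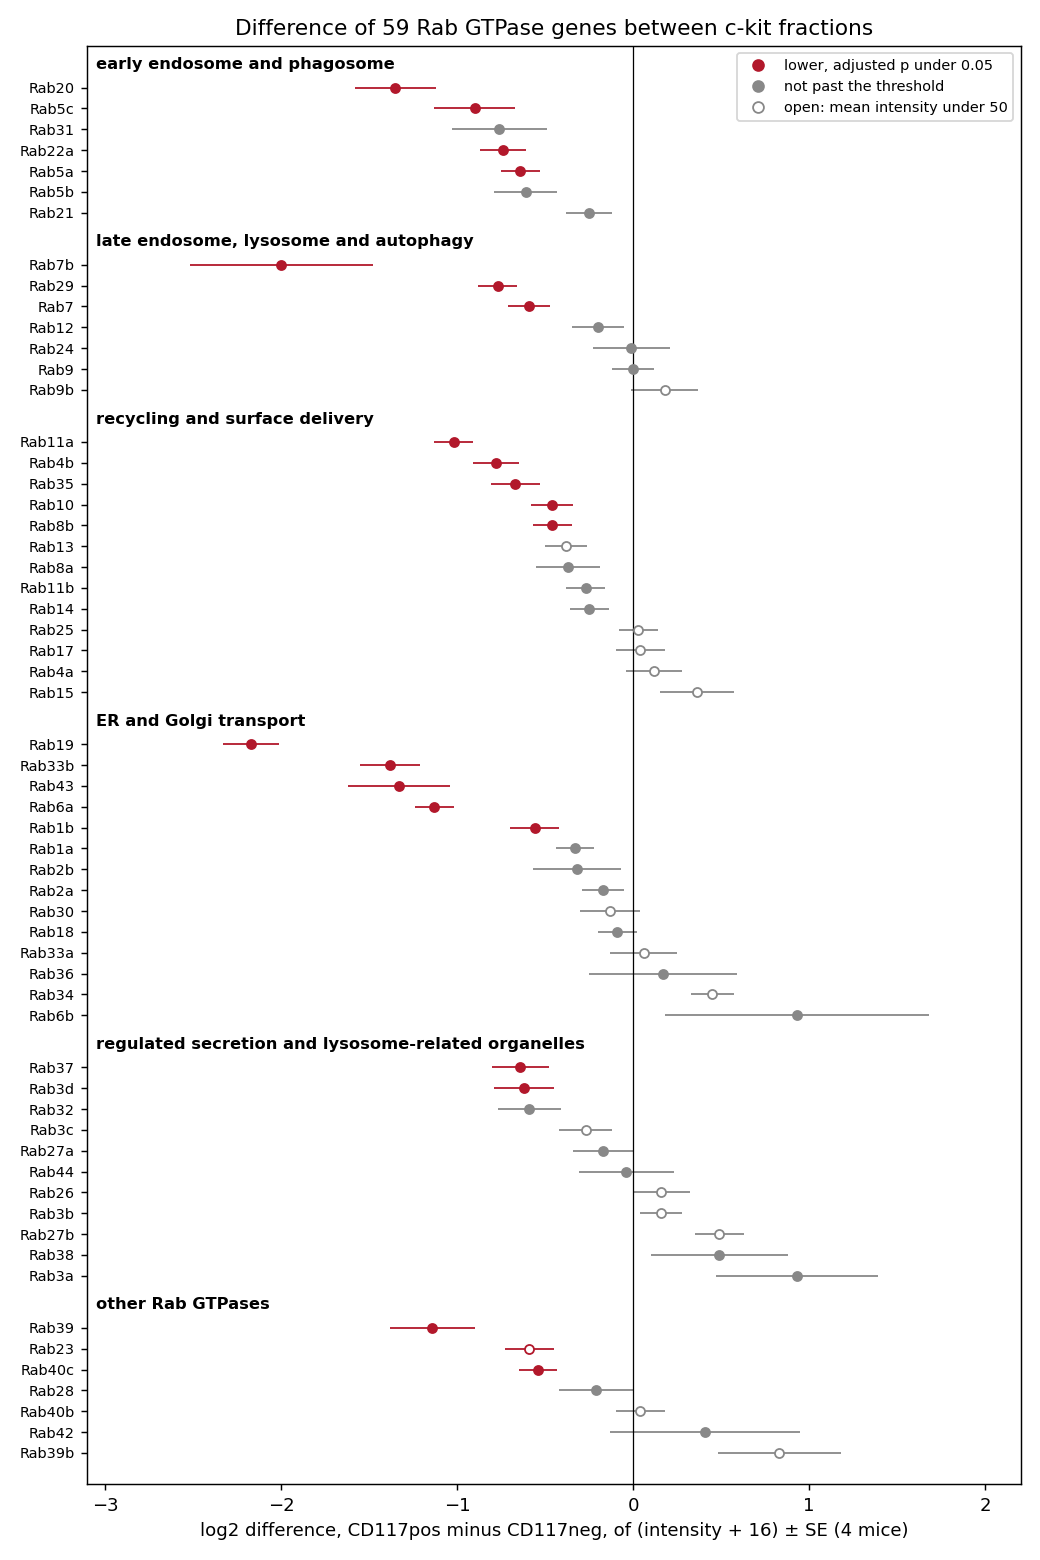
Log2 difference (CD117pos minus CD117neg) ± SE of each of the 59 Rab genes, grouped by the step of traffic they serve, with genes lower at an adjusted p under 0.05 in red. The 22 red points all lie left of 0, from Rab19 at -2.17 to Rab8b at -0.46, and no gene right of 0 passed the test.

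Because the calls of these 4 genes held under every setting tried, the 250 bases upstream of their RefSeq start sites (GRCm38.p6) are shown, 5′ to 3′ in the sense of the gene. The windows were chr7:100607336-100607585 (+) for Rab6a, chr3:51483716-51483965 (+) for Rab33b, chr6:39381103-39381352 (+) for Rab19 and chr9:64737757-64738006 (-) for Rab11a. Capitals mark matches, on either strand, to 6 sequences chosen after the windows had been seen: the Ets family core CCGGAAG, the E-box CACGTG, the GC box GGGCGG, the CCAAT box CCAAT, the TATA box TATAAA and the CRE TGACGTCA.
Rab6a: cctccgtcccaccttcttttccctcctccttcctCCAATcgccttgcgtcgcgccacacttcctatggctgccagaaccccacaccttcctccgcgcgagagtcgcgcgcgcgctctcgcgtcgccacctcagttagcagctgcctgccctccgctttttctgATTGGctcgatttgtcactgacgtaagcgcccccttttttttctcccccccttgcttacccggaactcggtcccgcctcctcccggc
Rab33b: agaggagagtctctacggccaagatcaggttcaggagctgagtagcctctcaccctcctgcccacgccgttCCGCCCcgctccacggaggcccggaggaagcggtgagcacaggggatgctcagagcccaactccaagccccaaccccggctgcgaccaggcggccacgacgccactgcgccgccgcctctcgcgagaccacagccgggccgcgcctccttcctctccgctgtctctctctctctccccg
Rab19: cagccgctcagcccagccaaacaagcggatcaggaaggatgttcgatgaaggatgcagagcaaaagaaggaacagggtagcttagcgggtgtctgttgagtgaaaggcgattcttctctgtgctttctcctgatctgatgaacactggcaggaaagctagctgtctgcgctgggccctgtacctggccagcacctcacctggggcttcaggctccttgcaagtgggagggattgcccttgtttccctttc
Rab11a: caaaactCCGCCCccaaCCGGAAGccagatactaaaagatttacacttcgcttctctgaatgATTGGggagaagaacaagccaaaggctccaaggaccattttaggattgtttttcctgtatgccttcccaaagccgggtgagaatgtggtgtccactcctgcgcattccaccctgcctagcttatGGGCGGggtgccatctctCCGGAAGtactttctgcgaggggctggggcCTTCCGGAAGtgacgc
Rab11a held 4 matches to the Ets core, at -233, -46, -16 and -13 by their first base relative to the start, of which the last pair overlap. It also held GC boxes at -243 and -64 and a CCAAT box at -188. Rab6a held CCAAT boxes at -216 and -87, Rab33b a GC box at -179, and Rab19 none of the 6. The 4 genes thus shared no match. Rab33b and Rab6a had 23 and 24 CpG dinucleotides in the window, Rab11a 10 and Rab19 6, where the median of all 32851 windows in the table was 6. Entries were found for 48 of the 59 members (60 windows), among them 20 of the 22 lower members (25 windows). A GC box was present in 80.0% of the windows of lower members, in 57.1% of those of members not called and in 32.7% of all windows. The CCAAT box was present in 48.0%, 34.3% and 33.8%, the Ets core in 4.0%, 5.71% and 6.91%, the E-box in 12%, 5.71% and 6.02%, the TATA box in 4.0%, 8.57% and 12.4%, and the CRE in 4.0%, 2.86% and 1.55%. Median CpG counts in these 3 sets were 20, 12 and 6. These are descriptions of letters, and starts of 1 gene share sequence. The sets also differed in intensity, since 21 of the 22 lower members but 43 of all 59 had a mean of at least 50. Shares at matched intensity were not computed.

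The Rabs of early endosomes and phagosomes all had a negative difference. Of the 7 members 4 were lower (57.1%, background 13.8%), with a median of -0.74. All 7 had a mean intensity of at least 50, and of all such genes 22.5% were lower. Rab20, which takes part in phagosome maturation, measured 135, 139, 106 and 156 on the CD117neg arrays of mice _948, _951, _952 and _953 and 55.5, 18.1, 48.2 and 58.1 on their CD117pos arrays. The fractions did not overlap, and the CD117pos value of mouse _951 was the lowest. Its log2 difference was -1.35 ± 0.23 (adjusted p = 0.0124). Rab5a, a master switch of early endosome fusion, fell from 2339 ± 157 to 1507 ± 205, a difference of -0.64 ± 0.11 (adjusted p = 0.0135). Its paralog Rab5c fell from 1144 ± 616 to 565 ± 128 (-0.90 ± 0.23, adjusted p = 0.0435), where mouse _948 had the highest CD117neg value, 2047. The third paralog, Rab5b, measured 194 ± 37.2 and 123 ± 29.6 and was not called (-0.61 ± 0.18, adjusted p = 0.0688). Rab22a, of early and recycling endosomes, fell from 531 ± 60.8 to 316 ± 64.5 (-0.74 ± 0.13, adjusted p = 0.0138).

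Rab31, which links the trans-Golgi network with endosomes and phagosomes, had the highest mean of the group and was not called. It measured 3375, 3001, 3074 and 3612 in CD117neg and 2247, 858, 2420 and 2881 in CD117pos cells of the 4 mice in order. All CD117pos values lay below all CD117neg values, with that of mouse _951 far below the others, and the difference was -0.76 ± 0.27 (95% interval -1.44 to -0.08, adjusted p = 0.109). Rab21, known for integrin traffic, measured 2052 ± 61.1 and 1740 ± 231 (-0.25 ± 0.13, adjusted p = 0.249). No early endosome member was called without mouse _948 or _953, 2 without _952 and 3 without _951. The Rab5c call was the least stable, ending under 10 of 14 settings, among them each omission of a mouse, and the Rab22a call ended without probe sets of shared sequence (difference -0.39).

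Among Rabs of late endosomes, lysosomes and autophagy, 3 of 7 were lower (42.9%, background 13.8%) and the median was -0.20. Rab7b, described in monocytic cells and acting between late endosomes and the trans-Golgi network, had a large difference of very unequal size between mice. Its CD117neg values were 806, 666, 728 and 1019 and its CD117pos values 327, 24.1, 294 and 384, in the order of mice _948, _951, _952 and _953. The fractions did not overlap. The log2 difference was -4.09 in mouse _951 and -1.37 to -1.26 in the other mice, and the fitted value of -2.00 ± 0.52 (adjusted p = 0.0443) lay between them. Without mouse _951 it was -1.30 and remained called. A further Rab7b probe set was also lower (-1.42 ± 0.24).

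Rab7, the central Rab of late endosome and lysosome fusion, had the highest mean of that group. It measured 4507, 4611, 4809 and 4956 in CD117neg and 3275, 2525, 3332 and 3463 in CD117pos cells. Every CD117pos value was below every CD117neg value, and the difference was -0.59 ± 0.12 (adjusted p = 0.023). Rab29, a Golgi and lysosome Rab that recruits the kinase LRRK2, fell from 1649 ± 196 to 961 ± 144 (-0.77 ± 0.11, adjusted p = 0.00771), by a similar amount in each mouse (-0.88 to -0.63). Rab9, which returns mannose 6-phosphate receptors from late endosomes to the Golgi, measured 1156 ± 166 and 1168 ± 276, a difference of 0.00 with a 95% interval of -0.29 to 0.28. Rab24, linked to autophagy, measured 853 ± 133 and 856 ± 187 (interval -0.55 to 0.54), and Rab12 and Rab9b were not called either. The calls of Rab7 and Rab7b ended without mouse _948, _952 or _953, with a pseudocount of 1 and after quantile normalisation, that of Rab7b also without the mouse block, and that of Rab29 without mouse _948 (adjusted p = 0.0525). That left 0 calls in the group without mouse _948, 3 without _951 and 1 without _952 or _953.

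Of 13 Rabs of recycling and surface delivery, 5 were lower (38.5%, background 13.8%) and the median was -0.37. Rab11a, which governs recycling endosomes, was lower by a similar amount in each mouse. It measured 2034, 1988, 2019 and 2108 in CD117neg and 959, 905, 1123 and 1025 in CD117pos cells. The fractions were far apart relative to their spread, with a difference of -1.02 ± 0.11 (adjusted p = 0.00382) and single mice between -1.12 and -0.84. Its close paralog Rab11b measured 2279 ± 90.5 and 1892 ± 183 and was not called (-0.27 ± 0.11, adjusted p = 0.159). On the chosen probe sets Rab11a was lowered more than Rab11b in 4 of 4 mice, by 0.74 ± 0.25 (SD) on the log2 scale. The exact permutation p over mice was 0.125, the smallest that 4 pairs allow, and 0.312 adjusted over the 10 pairs of paralogs compared. The other probe sets lay nearer each other, at -0.63 ± 0.17 for Rab11a, without a call, and -0.45 and -0.32 for Rab11b.

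Rab4b and Rab35, both of fast recycling to the plasma membrane, fell from 1093 ± 67.7 to 634 ± 100 (-0.78 ± 0.13, adjusted p = 0.0107) and from 1136 ± 105 to 709 ± 84.4 (-0.67 ± 0.14, adjusted p = 0.025). Rab10 and Rab8b, which carry vesicles to the cell surface, had smaller fitted differences. Rab10 went from 2392 ± 37.4 to 1746 ± 206 (-0.46 ± 0.12, adjusted p = 0.0425) and Rab8b from 4434 ± 324 to 3233 ± 341 (-0.46 ± 0.11, adjusted p = 0.0365). Rab14, which works between the Golgi and endosomes, had the highest mean here, at 5357, 5960, 6039 and 5961 in CD117neg and 4493, 4593, 5363 and 5238 in CD117pos cells. It was lower in each mouse, but the fractions overlapped narrowly and it was not called (-0.25 ± 0.11, 95% interval -0.52 to 0.02, adjusted p = 0.178). Rab8a (-0.37 ± 0.18, adjusted p = 0.223) was not called, and Rab13, Rab15, Rab17, Rab25 and Rab4a had means under 50 and no call. After quantile normalisation 2 recycling Rabs were lower, after centring 3 and with a pseudocount of 1 there were 2. Without mouse _948, _952 or _953 the 1 call left was in each case Rab11a.

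Rabs of the ER and Golgi held the most negative difference of the family, that of Rab19, and also members with little difference. Of 14 members 5 were lower (35.7%, background 13.8%), with a median of -0.24. Rab6a, which directs retrograde traffic through the Golgi, measured 3053, 3797, 3320 and 3415 in CD117neg and 1308, 1784, 1617 and 1478 in CD117pos cells. The values were about evenly lowered in all mice (-1.21 to -1.03), and the difference was -1.13 ± 0.11 (adjusted p = 0.00259). All 3 Rab6a probe sets were lower, by -1.13, -1.17 and -1.42. Rab33b, a Golgi Rab that binds the autophagy protein Atg16l1, measured 1132, 1298, 1007 and 1386 in CD117neg and 423, 357, 538 and 500 in CD117pos cells. No value overlapped, and the difference was -1.38 ± 0.17 (adjusted p = 0.00537).

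Rab19, a little-studied Rab found at the Golgi, lay above the array medians in CD117neg cells only. It measured 150, 99.4, 116 and 160 in CD117neg and 20.6, 15.0, 17.3 and 12.5 in CD117pos cells, the latter below the array medians of 27.5 to 31.1. The difference of -2.17 ± 0.16 (adjusted p = 0.00128) therefore depends on the pseudocount, and was -2.93 with 1 and -1.27 with 64, called each time. Rab43, which acts at the Golgi and is known from antigen cross-presentation by dendritic cells, measured 1659, 1325, 1432 and 1721 in CD117neg and 474, 1122, 506 and 475 in CD117pos cells. Mouse _951 kept most of its signal while the other mice lost over 1 log2 unit more, with -0.24 against -1.82 to -1.47. The difference was -1.33 ± 0.29 (adjusted p = 0.0263), and -1.69 without mouse _951. A dimmer Rab43 probe set gave -1.50 ± 0.16.

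Rab1b, of the step from ER to Golgi, fell from 1068 ± 91.7 to 729 ± 132 (-0.56 ± 0.14, adjusted p = 0.0402). Its partner in that step, Rab1a, had the highest mean of the ER and Golgi group, at 5073, 4928, 5321 and 5430 in CD117neg and 3710, 3688, 4440 and 4686 in CD117pos cells. All mice went down and the fractions did not overlap, but it was not called (-0.33 ± 0.11, 95% interval -0.61 to -0.06, adjusted p = 0.0907). Rab2a, also of ER to Golgi traffic, differed by -0.17 ± 0.12 (interval -0.45 to 0.12) and Rab18, of the ER and lipid droplets, by -0.09 ± 0.11 (interval -0.35 to 0.17). Rab34, at 12.8 ± 2.34 and 23.4 ± 2.78, had a difference of 0.45 ± 0.12 (adjusted p = 0.0508) and was higher in 4 of 4 mice. It passed after quantile normalisation (adjusted p = 0.0408), but both means were below the array medians, and its second probe set differed by -0.09. Rab2b (-0.32), and Rab30 and Rab33a with means under 50, were not called. The Rab43 call ended whenever mouse _948, _952 or _953 was left out, with a pseudocount of 1 and after quantile normalisation, and the Rab1b call ended without any of the mice, after either scaling and with a pseudocount of 1. Thus 3 ER and Golgi members were lower without mouse _948, _952 or _953, after quantile normalisation or with a pseudocount of 1.

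**Figure D2:**
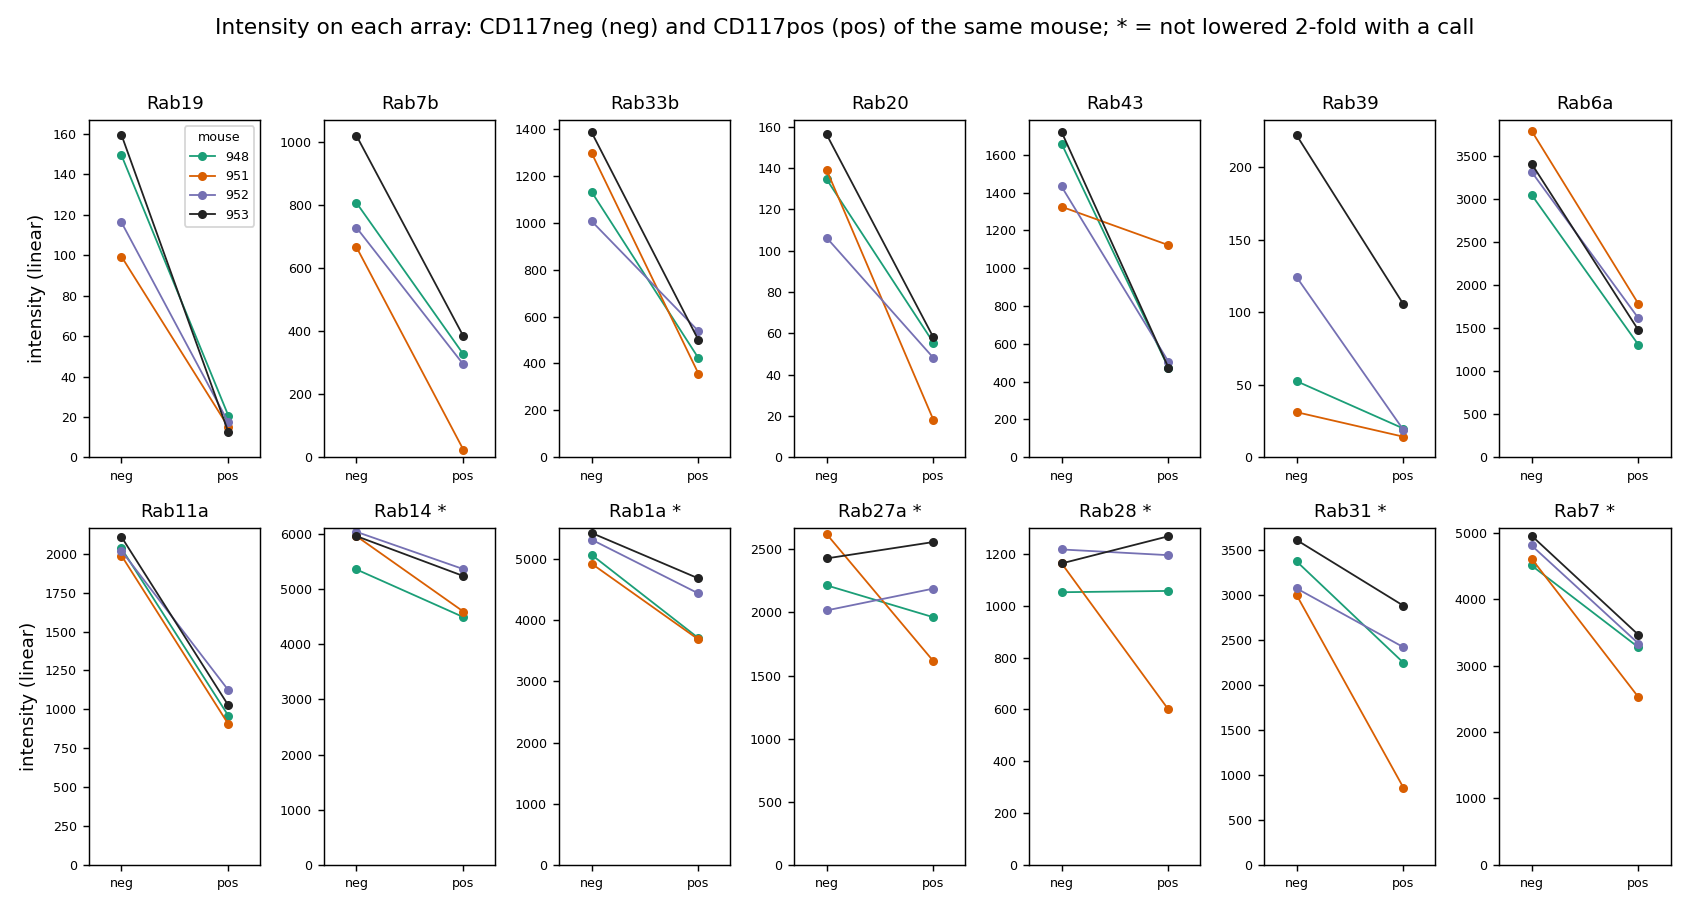
Linear intensity of 14 Rab genes on each array, each line joining the CD117neg (neg) and CD117pos (pos) array of a mouse; panels without an asterisk are the 8 genes called at least 2-fold lower. Lines run down in parallel for Rab6a and Rab11a, while mouse _951 (orange) departs from the others for Rab7b, Rab43, Rab31 and Rab28.

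Rabs of regulated secretion and of lysosome-related organelles had 2 lower members of 11 (18.2%, background 13.8%) and a median of -0.04. Among its members with a mean intensity of at least 50, 28.6% were called, each of them lower. Of all genes with such a mean, 22.5% were lower and 13.9% higher. Rab27a, needed for exocytosis of lytic and neutrophil granules, had the highest mean of this group. It measured 2215, 2622, 2016 and 2428 in CD117neg and 1962, 1614, 2189 and 2558 in CD117pos cells. The fractions overlapped and the mice went in both directions, with a difference of -0.17 ± 0.17 (95% interval -0.59 to 0.25, adjusted p = 0.548). Rab44, a large Rab of granulocyte lineages, measured 1937 ± 521 and 1884 ± 425 (-0.04 ± 0.27, interval -0.70 to 0.63). It was lower in mouse _951 (-1.05) and higher in the other 3 (0.20 to 0.36). These values lay beside primary granule markers of which 5 of 7 were higher in CD117pos cells and late neutrophil markers of which 9 of 10 were lower.

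Rab3d, of secretory granules, fell from 969 ± 176 to 623 ± 81.7 (-0.62 ± 0.17, adjusted p = 0.0487), close to the threshold. Its other probe sets gave -1.48 ± 0.20, -1.34 ± 0.16 and, at a mean of 18.7, 0.12 ± 0.21. Rab37, a Rab of mast cell granules, fell from 65.2 ± 11.3 to 36.0 ± 7.31 (-0.64 ± 0.16, adjusted p = 0.0365). Rab32, which with Rab38 serves melanosomes and other lysosome-related organelles, measured 1711 ± 141 and 1172 ± 351 without a call (-0.59 ± 0.18, interval -1.05 to -0.14, adjusted p = 0.0745). Rab27b, the paralog of Rab27a, measured 30.4 ± 1.53 and 49.98 ± 12.6 (0.49 ± 0.14, adjusted p = 0.0586) and was higher in 4 of 4 mice. It passed after quantile normalisation (adjusted p = 0.032) and centring (0.039), but its other 3 probe sets differed by -0.12 to 0.20 at means under 8. Rab3b, Rab3c and Rab26 had means under 50 and were not called. Both calls of this group ended after either scaling, with a pseudocount of 1 and on leaving out _948, _952 or _953.

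Among the remaining Rabs 3 of 7 were lower (42.9%, background 13.8%), with a median of -0.21. Rab39, found on phagosomes and late endosomes, varied widely between mice. It measured 52.5, 31.1, 124 and 222 in CD117neg and 19.8, 14.2, 18.9 and 106 in CD117pos cells. The fractions overlapped because mouse _953 was high in both, while each mouse on its own was lower in CD117pos cells (-2.01 to -0.64). The difference was -1.14 ± 0.24 (adjusted p = 0.0239), and without the mouse block it was not called (adjusted p = 0.222). Rab40c, which has a SOCS box and joins ubiquitin ligases, fell from 566 ± 44.3 to 387 ± 59.5 (-0.54 ± 0.11, adjusted p = 0.0215), but with the mean of its probe sets its difference was 0.04. Rab23, a negative regulator of Hedgehog signalling, fell from 57.5 ± 12.2 to 33.5 ± 12.2 (-0.59 ± 0.14, adjusted p = 0.0301). That call ended under 8 of 13 settings, among them the fit without the block and the mean of its probe sets (differences as small as -0.11, adjusted p up to 0.79), and another of its probe sets differed by 0.79 ± 0.45. Rab28, linked to photoreceptor cilia, measured 1052, 1164, 1217 and 1163 in CD117neg and 1057, 600, 1195 and 1268 in CD117pos cells. Only mouse _951 was clearly lower (-0.94), and the gene was not called (-0.21 ± 0.21, interval -0.72 to 0.30). Rab40b had a mean under 50 and no call. Without mouse _948 or _953 this group had 0 calls, without _952 it had 1, and without _951 it had 3.

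The chosen probe sets of 6 Rabs had high values on the CD117pos array of mouse _951 alone. Rab6b, a paralog of Rab6a best known from neurons, measured 2333 there against 214 to 284 on the other CD117pos arrays and 145 to 357 on the CD117neg arrays. Rab3a, of synaptic vesicle release, measured 4476 against 576 to 768 and 357 to 818. That Rab3a probe set is marked as one of sequence shared with other transcripts, and the other probe set of the gene measured 27.8 and 29.7 (difference 0.07 ± 0.11). Whether the high signal belongs to Rab3a was therefore not settled. Rab36, a Golgi Rab, measured 721 there and 126 to 207 on the other arrays. Rab42 measured 239 against 11.2 to 35.6, Rab38, also on a probe set of shared sequence, 196 against 30.2 to 52.6 and Rab39b, another Rab best known from neurons, 113 against 13.6 to 43.7. None of the 6 was called. On the CD117pos arrays the other probe sets averaged 35.9 and 9.77 for Rab36, 23.2 for Rab38 and 10.1 for Rab39b. Those of Rab6b averaged 12.1 to 30.5, and Rab42 had only 1 probe set. In each of the 6 genes the high signal thus rested on 1 probe set, and whether it belongs to the gene was not settled. In all, the difference in mouse _951 lay over 1 log2 unit above the range of the other mice for 7 Rabs (the 6 and Rab43) and over 1 below it for 3 (Rab31, Rab44 and Rab7b). Among all genes 6.48% and 3.79% did so, against 11.9% and 5.08% of the members. On the same array the summed T-cell markers reached 802 (71.9 to 156 elsewhere) and the summed stromal and endothelial markers 805 (150 to 237 elsewhere), while mature monocyte and late neutrophil sums were the lowest of all arrays, at 1081 and 14570. Of the T-cell sum, Cd8a (537, on a probe set of shared sequence) and Thy1 (246) made up nearly all, with Cd3d, Cd3e, Cd3g and Cd4 at 1 to 11. Of the stromal sum most was Pdgfrb (551) and Col1a2 (165), with Col1a1, Cdh5 and Dcn at 11.1 to 20.8. The part of these markers in the Rab values was not tested. Without that array and without the block, 22 Rabs were lower and 2 higher.

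**Figure D3:**
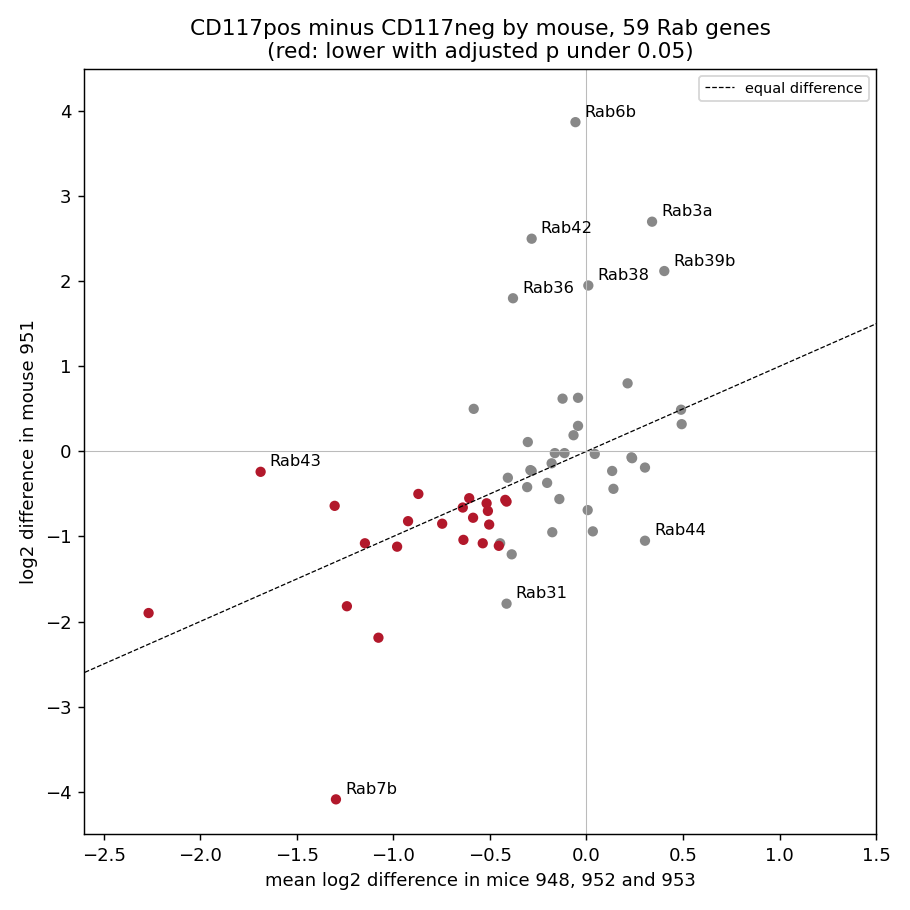
Log2 difference of each of the 59 Rab genes in mouse _951 (vertical) against its mean in mice _948, _952 and _953 (horizontal), with called genes in red and equality as a dashed line. Rab6b, Rab3a, Rab42, Rab39b, Rab38 and Rab36 lie high above the line and Rab7b far below it.

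On the chosen probe sets, paralogs did not always share a difference. Besides the Rab11 pair, Rab6a and Rab6b differed by -1.13 and 0.93, and Rab7 and Rab7b by -0.59 and -2.00. Rab3a and Rab3d differed by 0.93 and -0.62. In each of these 3 pairs all 4 mice had the same order, with an exact permutation p of 0.125, the smallest possible, and an adjusted p of 0.312, and each gap was widest in mouse _951. Without that mouse the difference of Rab6b was -0.06, that of Rab3a 0.34 and that of Rab7b -1.30. The other Rab6b probe sets gave -0.57, 0.11 and 0.15, and the Rab3a probe set not marked as shared gave 0.07. The pairs Rab1a and Rab1b, Rab2a and Rab2b, Rab8a and Rab8b, and the 3 pairs among Rab5a, Rab5b and Rab5c had mean gaps of -0.03 to 0.29 (exact permutation p of 0.375 to 0.875). Each pair compares differences, not levels, of separate probe sets.

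Probe sets of 1 gene were compared in a fit over 45037 probe sets other than controls. Of the 132 Rab probe sets 34 were lower and 0 higher by limma at an adjusted p under 0.05, and 3 were higher at an unadjusted p under 0.05. No share over all 45037 probe sets is given here, so these counts have no background beside them. With 0 called higher, the 38 genes with several probe sets could not have calls in opposite directions. Fitted signs did differ within some genes, as for Rab40c (-0.54 ± 0.11 and 0.63 ± 0.53), Rab23 (-0.59 ± 0.14 and 0.79 ± 0.45) and Rab21 (-0.25 ± 0.13 and 0.42 ± 0.12). Of 10 genes with several probe sets whose chosen probe set was called in that fit, 4 had another probe set called the same way, namely Rab6a, Rab7b, Rab22a and Rab43. Rab10 and Rab3d, called over genes, had chosen probe sets at adjusted p = 0.0531 and 0.0567 there, each with another probe set that passed. Some genes without a call had a dimmer probe set that was lower, such as Rab14 (-0.93 ± 0.21), Rab36 (-0.75 ± 0.19) and Rab6b (-0.57 ± 0.14, a probe set of shared sequence).

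The proteins that switch Rabs showed more falls than rises. Of 29 exchange factors 15 were lower and 1 higher (51.7% and 3.45%), with a median of -0.60, beside the same background of 13.8% and 8.27%. Among those with a mean intensity of at least 50, 60% were called in either direction, against 36.3% of all such genes. Dennd3, an exchange factor of Rab12, measured 317, 563, 304 and 532 in CD117neg and 33.5, 46.5, 33.3 and 26.0 in CD117pos cells. No array of 1 fraction came near the other, and the difference was -3.09 ± 0.20 (adjusted p = 0.000925). Rin2, an exchange factor of Rab5, fell from 324 ± 86.1 to 31.9 ± 22.7 (-2.95 ± 0.24), and Dennd1c, of the family that acts on Rab35, from 609 ± 58.9 to 132 ± 48.5 (-2.14 ± 0.24). The factor that rose was Ankrd27, which acts on Rab21 and was chosen after its value was seen, from 237 ± 32.0 to 394 ± 112 (0.67 ± 0.18, adjusted p = 0.0463). Leaving out 1 mouse gave 10 lower exchange factors (_948), 18 (_951), 10 (_952) or 7 (_953), and 0 higher each time.

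Of 35 GTPase-activating proteins 10 were lower and 1 higher (28.6% and 2.86%, background 13.8% and 8.27%), with a median of -0.16. Among those with a mean intensity of at least 50, 33.3% were called in either direction, near the 36.3% of all such genes. Tbc1d22b fell from 191 ± 43.7 to 34.9 ± 17.4 (-2.07 ± 0.17), Tbc1d10c from 232 ± 59.6 to 44.7 ± 5.75 (-2.00 ± 0.19), and Tbc1d10b from 1857 ± 13 to 732 ± 85.7 (-1.33 ± 0.12). The TBC1D10 proteins are known to act on Rab27a and Rab35. The 1 that rose was Tbc1d7, better known as a subunit of the TSC complex and chosen after its value was seen (0.71 ± 0.16, adjusted p = 0.0272). Leaving out 1 mouse gave 5 lower and 0 higher (_948), 11 and 3 (_951), 7 and 0 (_952) or 5 and 0 (_953).

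Of 37 effectors of endosomal Rabs 11 were lower and 1 higher (29.7% and 2.7%, background 13.8% and 8.27%), with a median of -0.26. Among those with a mean intensity of at least 50, 35.5% were called in either direction, near the 36.3% of all such genes. Rab11fip5, an effector of Rab11, fell from 455 ± 161 to 108 ± 33.3 (-1.88 ± 0.24), and Rab11fip1, of the same family, from 70.8 ± 23.4 to 17.1 ± 7.27 (-1.38 ± 0.21). Fyco1, which joins Rab7 to kinesin, fell from 991 ± 234 to 289 ± 33.9 (-1.70 ± 0.13). The 1 rise was Ocrl, an inositol phosphatase chosen after its value was seen (0.63 ± 0.14, adjusted p = 0.0258). Of 20 genes listed as effectors of secretory Rabs 6 were lower and 0 higher (also 0 higher at an unadjusted limma p under 0.05), with a median of -0.25. The lower share was 30% (background 13.8%). Among members with a mean of at least 50, 50% were called, against 36.3% of all such genes in either direction. That list does not hold effectors alone, since Hps1, Hps4 and Bloc1s3 are among its 6 lower genes. Myo5a, the myosin that carries Rab27a-bound organelles, fell from 921 ± 118 to 277 ± 153 (-1.82 ± 0.32, not called without mouse _948) and Unc13d, the Rab27a effector Munc13-4 of granule release, from 316 ± 49.9 to 118 ± 44.0 (-1.35 ± 0.22, not called without mouse _953). Hps1, of the BLOC-3 complex that activates Rab32 and Rab38, fell from 1383 ± 230 to 755 ± 315 (-0.94 ± 0.18), but with the mean of its probe sets its difference was -0.16 and not called, and the call ended without mouse _948, _952 or _953. Leaving out 1 mouse gave 7 lower genes of the endosomal and 1 of the secretory list (_948), 12 and 7 (_951), 9 and 2 (_952) or 7 and 1 (_953). Among all 18193 genes, 1207 were lower without _948 and 1181 without _953. In both cases the lower share of the secretory list was below that of all genes, and that of the endosomal list above it. Without _948, _952 or _953 no endosomal effector was higher.

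Of 10 effectors of Golgi Rabs 1 was lower (10%, background 13.8%) and 0 higher, with a median of -0.28. At an unadjusted limma p under 0.05, 1 was higher. The lower gene was Golga2, the tethering protein GM130, which fell from 704 ± 85.7 to 402 ± 79.4 (-0.80 ± 0.20, adjusted p = 0.0389). Its call ended without mouse _948, _952 or _953, after either scaling and with a pseudocount of 1. With 1 mouse fewer, 3 Golgi effectors were lower without _951 and 0 without _948, _952 or _953.

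The machinery that prenylates Rabs and extracts them from membranes held few calls. Of its 9 measured genes 1 was higher (11.1%, background 8.27%) and 0 lower (background 13.8%), with a median of -0.36. At an unadjusted limma p under 0.05, 1 was higher and 5 were lower. The rise was Rabggtb, the catalytic subunit of Rab geranylgeranyl transferase, which measured 1036, 1358, 1205 and 1100 in CD117neg and 1577, 1825, 1605 and 1487 in CD117pos cells. Each CD117pos value was above each CD117neg value, and the difference was 0.47 ± 0.11 (adjusted p = 0.0324), a call that ended without mouse _948, _952 or _953 and with a pseudocount of 1. Among genes named after their values were seen, the partner subunit Rabggta measured 304 and 200 and was not called (adjusted p = 0.0641). Neither Rab escort protein gene was called, and Gdi2, the GDP dissociation inhibitor that recycles Rabs through the cytosol, measured 6594 and 5245 without a call (adjusted p = 0.0952).

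**Figure D4:**
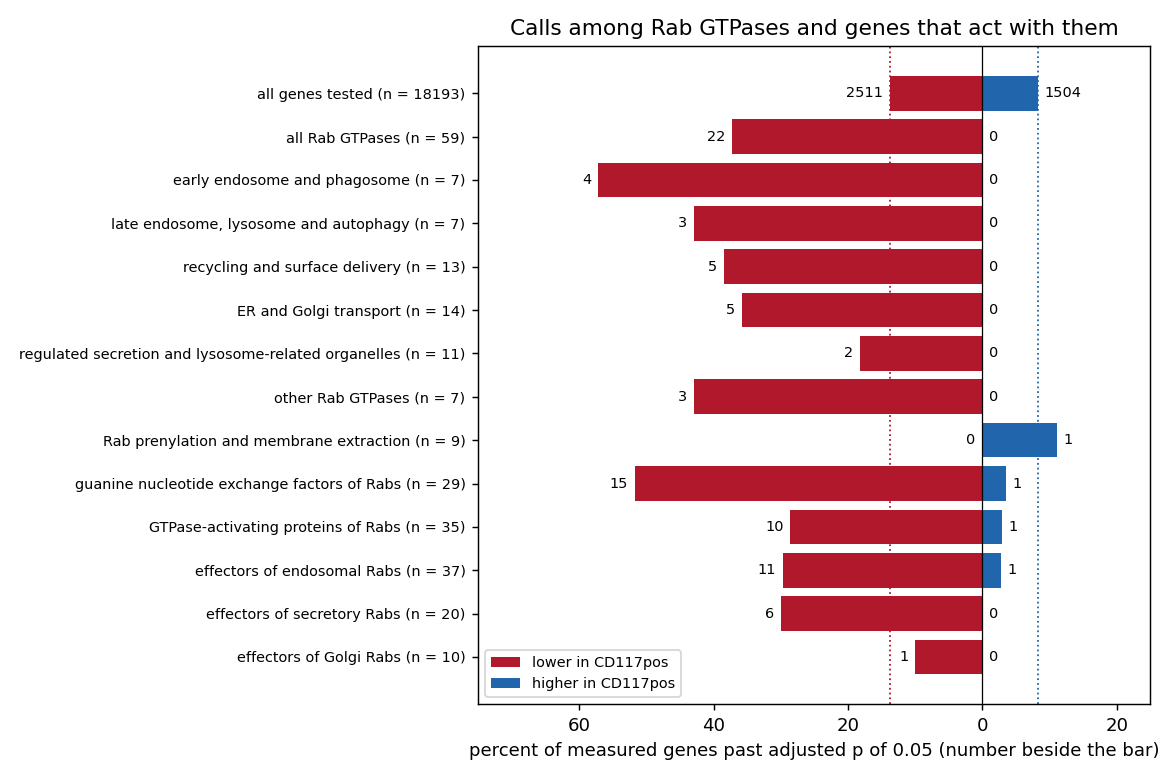
Percent of measured genes called lower (left, red) or higher (right, blue) in CD117pos cells for all genes, all Rabs, the Rab groups and the lists of genes that act with Rabs, with counts beside the bars and dotted lines at the background of all genes. Exchange factors (15 of 29) and early endosome Rabs (4 of 7) reach furthest left, and the prenylation list has no lower gene.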

How the data were processed

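RNA of sorted spleen cells was amplified, labelled with biotin and hybridised to Affymetrix arrays of 1 colour, per the labels' protocols. The authors deposited 1 linear intensity per probe set and array. Neither the summarisation software nor the scaling is given in the sources used here, and 841 to 898 values per array were exactly 1. Of 45101 probe sets, 64 were controls, 34945 had 1 gene symbol in the platform annotation, and 10092 others were not named. Each gene took the probe set with the highest mean. Tests used limma 3.58.1 in R 4.3.3 on log2(intensity + 16) over all 8 arrays, two-sided, with the mouse as a block, because each mouse gave both fractions. Deviations of the fractions of a mouse correlated at 0.12 to 0.27 across genes, against at most 0.11 between mice. Alternatives covered the block, pseudocounts of 1 and 64, scaling, a minimum mean of 50, probe sets, an intensity trend and omitted arrays. The code was tested on simulated data. It recovered 35 of 100 genes changed by 1 and 83 of 100 changed by 2 (log2) among 18193. It also called 11 genes that had not been changed. The members, lists and role groups were chosen with earlier results of these data known.

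Named were all Rabs past the threshold. Values per array were given for those of at least 2-fold and, in each group, for the member with the highest mean. Up to 3 genes of each accompanying list were named. Promoters came from RefSeq (GRCm38.p6) by gene identifier, without the 50 bases after the start. Protein sequences were not used here. Figures used matplotlib 3.10.9 in Python 3.11.15. Arrays have no read depth, and their number limits the precision.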

Additional observations from a re-analysis of the deposited data

Results flagged for a closer look

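Of 28 groups of 4 arrays, those of the 14 Rabs plotted by array, 3 held an array whose gap to its neighbour exceeded Dixon's 95% critical value for 4 samples, as a share of their range, where chance flags about 5% of groups. Rab14 measured 5360 on the CD117neg array of mouse _948, below 5960 to 6039 on the other CD117neg arrays. Rab39 measured 106 on the CD117pos array of mouse _953, above 14.2 to 19.8 on the others, and that mouse also had the highest CD117neg value, 222. Rab43 measured 1120 on the CD117pos array of mouse _951, above 474 to 506 on the others.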

How the results depend on the processing

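The count of 22 lower Rabs became 10 with a pseudocount of 1 and 10 after quantile normalisation, and ranged from 4 to 19 when 1 mouse was left out. It was 16 after centring and 19 to 23 under the other settings. The count of 0 higher Rabs became 2 after quantile normalisation, after centring, without the replicate block, and without both the block and array CD117pos of mouse _951, and 1 with a pseudocount of 1. It was 0 to 1 when 1 mouse was left out. Without the block 19 Rabs were lower, of which 18 were among the 22. The median log2 difference of -0.27 became -0.35 with a pseudocount of 1, -0.15 after quantile normalisation, -0.18 after centring and -0.54 for members with a mean intensity of at least 50, and was -0.30 to -0.29 when 1 mouse was left out. Rab36, not called over all arrays at 0.17, was -0.39 and called (adjusted p = 0.0384) without both the block and that array of mouse _951. Rab40c was 0.04 with the mean of its probe sets (adjusted p = 0.934). Leaving out a mouse leaves fewer arrays, and all genes called lower then numbered 1181 to 2983, against 2511. Without mouse _948 or _953 the share of Rabs that was lower was close to that of all genes. For 20 Rabs that were called neither over all arrays nor under the alternative, the sign changed in 46 values. Members with means under 50, which numbered 16, allow no statement on small differences.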
